A study of Mus musculus with 15 samples.

Results

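The 37 genes described here encode the contractile apparatus, calcium handling and energy supply of skeletal muscle, and they were read in 15 RNA sequencing libraries from tumors of 105K cells, a mouse renal tumor line. They were chosen by symbol, because TNNT3, TNNC2 and CKM were high in bulk tumors labelled sh-B7-H3 (1), and all 37 were found among the 24891 genes of the expression table. The comparison of bulk sh-B7-H3 (1) with bulk sh-NC tumors therefore selected them, and its values are given as a description without a test. The bulk sh-NC libraries are the low side of that comparison, so that other comparisons with them are not independent of the choice either.

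Skeletal muscle fibers are built of sarcomeres, in which myosin thick filaments pull on actin thin filaments between Z-discs. Calcium released from the sarcoplasmic reticulum binds the troponin complex on the thin filament and permits contraction, and creatine kinase, glycogen breakdown and myoglobin-bound oxygen sustain the ATP supply. Fast and slow fibers use different myosin heavy chains and different troponin subunits, so that the genes of a muscle signal also tell its fiber type.

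The 105K cells lack Tsc2 and originate from renal tumor tissue of Tsc2+/- mice. They stably expressed a control shRNA (sh-NC) or an shRNA against B7-H3, an immune checkpoint protein encoded by CD276, and were injected with Matrigel under the flank skin of six-week-old male wild-type C57BL/6J mice. A first such shRNA, sh-B7-H3 (1), was used with its control in bulk tumors and in sorted cells, and a further one, sh-B7-H3 (2), in sorted cells only, which gave 5 groups of 3 libraries. Sorted cells were those left after enzymatic dissociation of a subcutaneous tumor and magnetic depletion of non-tumor cells. All groups share the Tsc2 loss and the wild-type host, and the labels do not say whether replicates came from separate mice, so p-values measure the spread between these libraries.

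Levels are in scaled FPKM, that is, fragments scaled by gene length and library size and then divided by a median-ratio factor for each library, and the read depth behind them is unknown beyond a relative depth of 0.468 to 1 across libraries. MIR6236 held over 50% of the summed FPKM in bulk sh-NC replicate 3, bulk sh-B7-H3 (1) replicate 2 and sorted sh-NC replicate 2. Markers of epithelial 105K cells had sums from 665 to 1322 scaled FPKM across the 15 libraries. The sum of 10 leukocyte markers was 300 to 679 in bulk tumors and 3.15 to 9.71 in 8 sorted libraries, but 455 in sorted sh-B7-H3 (2) replicate 1, which thus went against its label as depleted cells. CD276 was at 34.0, 20.0 and 17.3 scaled FPKM in sorted sh-NC cells, at 7.29, 14.0 and 11.5 in sorted sh-B7-H3 (1) cells and at 23.3, 25.4 and 25.7 in sorted sh-B7-H3 (2) cells. In bulk tumors, CD276 was at 20.8, 23.2 and 23.5 with sh-NC and at 22.3, 17.8 and 24.4 with sh-B7-H3 (1). CD276 RNA was thus below every sh-NC library only in the sorted cells labelled sh-B7-H3 (1) (limma, adjusted p = 0.055), and the other knockdown groups are named here as labelled.

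RefSeq promoter windows, which cover 250 bases before and 50 after a start site, were held for 29 of the 37 genes. Shown here are the 250 bases before the start site of the gene with the highest mean over the 6 bulk libraries in each role group other than the myogenic factors, all of which stayed near or below 1 scaled FPKM, and they are shown because these genes moved together across libraries. They lie in build GRCm38.p6 at chr7:127211358-127211607 (plus strand), chr8:123894776-123895025 (minus strand), chr1:75360042-75360291 (plus strand), chr7:126463074-126463323 (minus strand) and chr7:19410844-19411093 (plus strand). Each is written in the direction of transcription, and capitals mark CAGCTG, a form of the E-box bound by myogenic factors such as MyoD, and in ACTA1 also the CArG box of serum response factor.
MYLPF: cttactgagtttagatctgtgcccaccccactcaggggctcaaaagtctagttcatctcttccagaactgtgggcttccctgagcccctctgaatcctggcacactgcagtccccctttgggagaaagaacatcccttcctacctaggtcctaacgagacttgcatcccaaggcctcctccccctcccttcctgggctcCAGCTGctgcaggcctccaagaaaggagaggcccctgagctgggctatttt
ACTA1: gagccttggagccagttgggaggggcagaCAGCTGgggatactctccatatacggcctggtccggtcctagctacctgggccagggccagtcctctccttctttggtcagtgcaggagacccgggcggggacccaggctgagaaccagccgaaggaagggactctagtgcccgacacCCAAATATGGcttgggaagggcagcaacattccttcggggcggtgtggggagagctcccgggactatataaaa
DES: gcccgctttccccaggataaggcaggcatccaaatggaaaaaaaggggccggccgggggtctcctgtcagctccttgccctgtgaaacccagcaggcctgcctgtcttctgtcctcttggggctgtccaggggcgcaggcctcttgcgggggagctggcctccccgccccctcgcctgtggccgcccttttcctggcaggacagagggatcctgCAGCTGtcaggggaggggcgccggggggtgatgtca
ATP2A1: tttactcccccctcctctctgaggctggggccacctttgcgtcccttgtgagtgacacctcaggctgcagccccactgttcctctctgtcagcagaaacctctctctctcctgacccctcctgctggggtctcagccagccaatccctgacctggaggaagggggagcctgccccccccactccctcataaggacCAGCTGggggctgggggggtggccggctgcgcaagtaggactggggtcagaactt
CKM: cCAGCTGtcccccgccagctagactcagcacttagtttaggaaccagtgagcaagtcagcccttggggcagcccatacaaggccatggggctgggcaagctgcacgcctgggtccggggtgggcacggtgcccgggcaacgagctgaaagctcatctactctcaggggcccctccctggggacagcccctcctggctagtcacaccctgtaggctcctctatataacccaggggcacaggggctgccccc

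The motif CAGCTG, which reads the same on both strands, began 51 bases before the start site in MYLPF, 221 in ACTA1, 36 in DES and 55 in ATP2A1, and it lay at the far end of the CKM window. It was present in the 250 bases before the start in 15 of the 29 genes, or in 17 of their 35 windows (48.6%), against 13.0% of all 32851 windows. The broader E-box CANNTG, which includes CAGCTG, was in 82.9% of the windows of these genes and in 66.2% of all windows. CArG boxes were found in 11.4% and 1.47%, and MEF2 motifs in 14.3% and 2.92%, respectively, searched on both strands. These counts describe letters in the windows and not bound sites.

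The highest levels of the muscle genes were found in bulk sh-B7-H3 (1) tumors, and they were very unequal among the 3 libraries. The 37 genes summed to 70.3, 1151 and 363 scaled FPKM in replicates 1, 2 and 3, and to 12.9, 44.1 and 18.0 in the bulk sh-NC libraries. Replicate 2 was the highest of all 15 libraries for 36 of the 37 genes, and 35 of the 37 followed the order replicate 2, replicate 3, replicate 1. Among the 16 genes at 1 scaled FPKM or more in all 3 of these libraries, replicate 2 exceeded replicate 1 by a median of 19.1-fold and exceeded replicate 3 by a median of 3.25-fold. The median ratio over the 11273 genes of the whole table at that level was 1.00 and 1.01. In bulk tissue, a larger number of muscle cells and more muscle RNA per cell cannot be told apart.

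**Figure D1:**
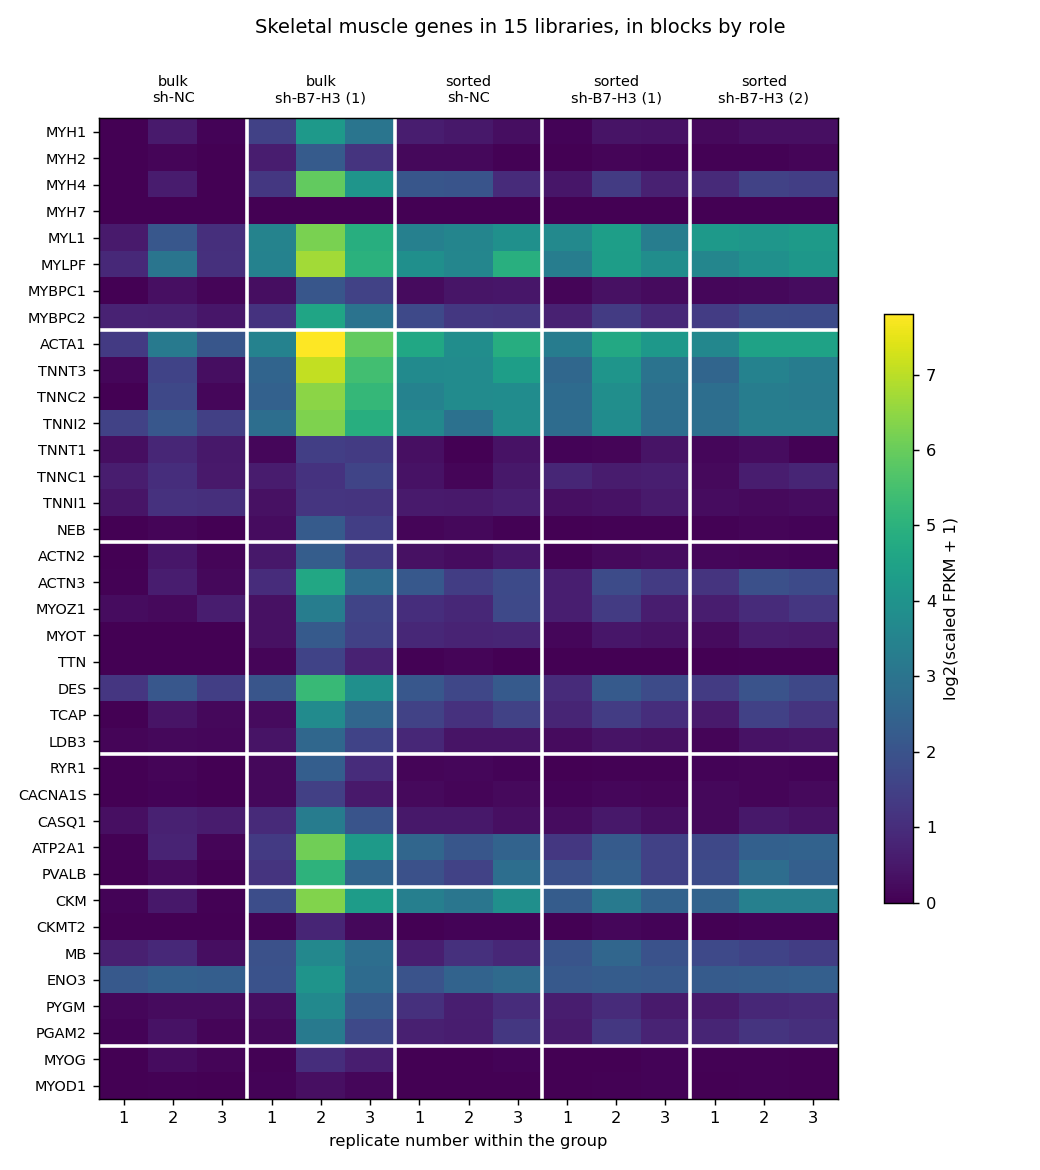
Levels of the 37 skeletal muscle genes (rows, in blocks from the top: myosin, thin filament, Z-disc and scaffold, calcium, energy, myogenic factors) in 15 libraries (columns, 3 per group), as log2(scaled FPKM + 1). Replicate 2 of bulk sh-B7-H3 (1) is the brightest column, and the bulk sh-NC columns are darker than the sorted columns for most fast-fiber genes.

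The thin-filament genes ACTA1 and TNNT3 had the highest means over the bulk libraries, followed by the myosin gene MYLPF. TNNT3 (chr7:142498836-142516009, mm10), the fast-fiber tropomyosin-binding subunit of troponin, was at 0.0914, 1.96 and 0.225 scaled FPKM in bulk sh-NC replicates 1 to 3 and at 4.75, 135 and 42.5 in bulk sh-B7-H3 (1). Its sorted values were 12.2, 12.5 and 19.7 with sh-NC, 5.12, 15.8 and 6.91 with sh-B7-H3 (1) and 4.81, 10.02 and 8.73 with sh-B7-H3 (2). The bulk groups did not overlap, and bulk sh-B7-H3 (1) replicate 1 lay below all 9 sorted libraries. TNNC2 (chr2:164777161-164779967), the fast calcium-binding subunit, was at 0, 2.26 and 0.0962 in bulk sh-NC and at 4.40, 85.8 and 35.8 in bulk sh-B7-H3 (1). In sorted cells it was at 9.97, 12.6 and 12.8 with sh-NC, at 5.66, 13.5 and 6.16 with sh-B7-H3 (1) and at 6.07, 8.96 and 8.53 with sh-B7-H3 (2). The opposite strand of the TNNC2 locus carries part of UBE2C, a cell cycle gene that ranged from 44.6 to 81.0 in the 15 libraries, and whether strand was used in counting is not given in the sources used here.

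ACTA1 (chr8:123891769-123894751), skeletal alpha-actin, had the highest mean of the 37 genes over the 6 bulk libraries. However, ENO3 exceeded it in bulk sh-NC replicates 1 and 3, TNNI2 in bulk sh-NC replicate 1 and MYL1 in bulk sh-B7-H3 (1) replicate 1. ACTA1 was at 1.48, 8.19 and 3.26 scaled FPKM in bulk sh-NC and at 10.1, 221 and 60.0 in bulk sh-B7-H3 (1). Its sorted values were 24.0, 13.1 and 27.9 with sh-NC, 8.59, 25.1 and 16.9 with sh-B7-H3 (1) and 11.2, 21.4 and 21.7 with sh-B7-H3 (2). The inhibitory fast troponin subunit TNNI2 was at 1.92, 3.37 and 1.80 in bulk sh-NC, at 6.06, 76.9 and 28.7 in bulk sh-B7-H3 (1) and between 5.73 and 13.3 in the sorted cells. NEB, which encodes the giant thin-filament protein nebulin, stayed at or below 3.70 in every library. The slow troponins TNNT1, TNNC1 and TNNI1 did not exceed 2.06 in any library, and their bulk groups overlapped.

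Among the myosin genes, MYLPF (chr7:127208890-127214298), the phosphorylatable fast light chain, was at 0.875, 7.23 and 1.14 scaled FPKM in bulk sh-NC, at 9.88, 105 and 30.4 in bulk sh-B7-H3 (1) and between 8.88 and 28.9 in the 9 sorted libraries. MYL1 (chr1:66924295-66945404), the essential light chain of fast fibers, was at 0.464, 3.32 and 1.07 in bulk sh-NC and at 10.3, 73.6 and 28.8 in bulk sh-B7-H3 (1). Its sorted values were 9.47, 10.7 and 14.0 with sh-NC, 11.7, 19.6 and 8.87 with sh-B7-H3 (1) and 17.2, 16.1 and 18.2 with sh-B7-H3 (2). For both light chains, the bulk groups did not overlap. The fast myosin-binding protein MYBPC2 was at 0.673, 0.640 and 0.382 in bulk sh-NC, at 1.22, 22.9 and 6.91 in bulk sh-B7-H3 (1) and between 0.634 and 2.46 in sorted cells. Its slow counterpart MYBPC1 reached 3.22 at most.

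The Z-disc and scaffold genes were lower. DES, the intermediate filament desmin, which smooth muscle also contains, was at 1.35, 3.36 and 1.71 scaled FPKM in bulk sh-NC, at 3.18, 36.9 and 13.7 in bulk sh-B7-H3 (1) and between 0.936 and 3.64 in sorted cells. The bulk groups overlapped for DES, since replicate 1 of sh-B7-H3 (1) lay below replicate 2 of sh-NC. ACTN3, the alpha-actinin of fast fibers, was at 0.0396, 0.544 and 0.122 in bulk sh-NC, at 1.01, 24.5 and 5.57 in bulk sh-B7-H3 (1), and between 0.580 and 3.44 in sorted cells. The titin cap gene TCAP was at 0, 0.328 and 0.126 in bulk sh-NC, at 0.176, 12.5 and 4.96 in bulk sh-B7-H3 (1) and between 0.490 and 1.90 in sorted cells. The highest values of MYOZ1, LDB3, ACTN2, MYOT and TTN were 8.81, 5.07, 3.96, 3.61 and 1.98, all in bulk sh-B7-H3 (1) replicate 2.

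Calcium handling followed the same order of libraries. ATP2A1 (chr7:126445858-126463108), the fast-fiber pump that returns calcium to the sarcoplasmic reticulum, was at 0.0219, 0.727 and 0.0721 scaled FPKM in bulk sh-NC and at 1.49, 67.6 and 18.2 in bulk sh-B7-H3 (1). In sorted cells it was at 4.92, 3.21 and 4.58 with sh-NC, at 1.42, 3.71 and 1.87 with sh-B7-H3 (1) and at 2.25, 4.29 and 4.47 with sh-B7-H3 (2). PVALB, the calcium buffer parvalbumin, was listed at 0 in bulk sh-NC replicates 1 and 3 and at 0.162 in replicate 2, and was at 1.28, 31.8 and 4.82 in bulk sh-B7-H3 (1) and between 1.83 and 6.01 in sorted cells. The calcium release and storage genes were at most 8.63 for CASQ1, 4.05 for RYR1 and 1.81 for CACNA1S.

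CKM (chr7:19404776-19422841), the cytosolic muscle creatine kinase, was at 0.0586, 0.402 and 0.0386 scaled FPKM in bulk sh-NC and at 2.56, 78.3 and 18.7 in bulk sh-B7-H3 (1). Its sorted values were 9.37, 7.28 and 13.8 with sh-NC, 3.83, 8.22 and 4.48 with sh-B7-H3 (1) and 4.54, 9.47 and 9.44 with sh-B7-H3 (2). CKM in bulk sh-B7-H3 (1) replicate 1 was below all 9 sorted libraries. ENO3, the muscle enolase, was less restricted, at 3.50, 4.23 and 4.07 in bulk sh-NC, at 2.91, 15.3 and 5.64 in bulk sh-B7-H3 (1) and between 3.01 and 5.46 in sorted cells. PYGM (glycogen phosphorylase) and PGAM2 reached 11.9 and 8.28, and the mitochondrial creatine kinase CKMT2 reached 0.734. The myogenic transcription factors MYOG and MYOD1 were at 1.04 and 0.237 in bulk sh-B7-H3 (1) replicate 2 and at or below 0.0645 and 0.0446 in sorted cells.

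**Figure D2:**
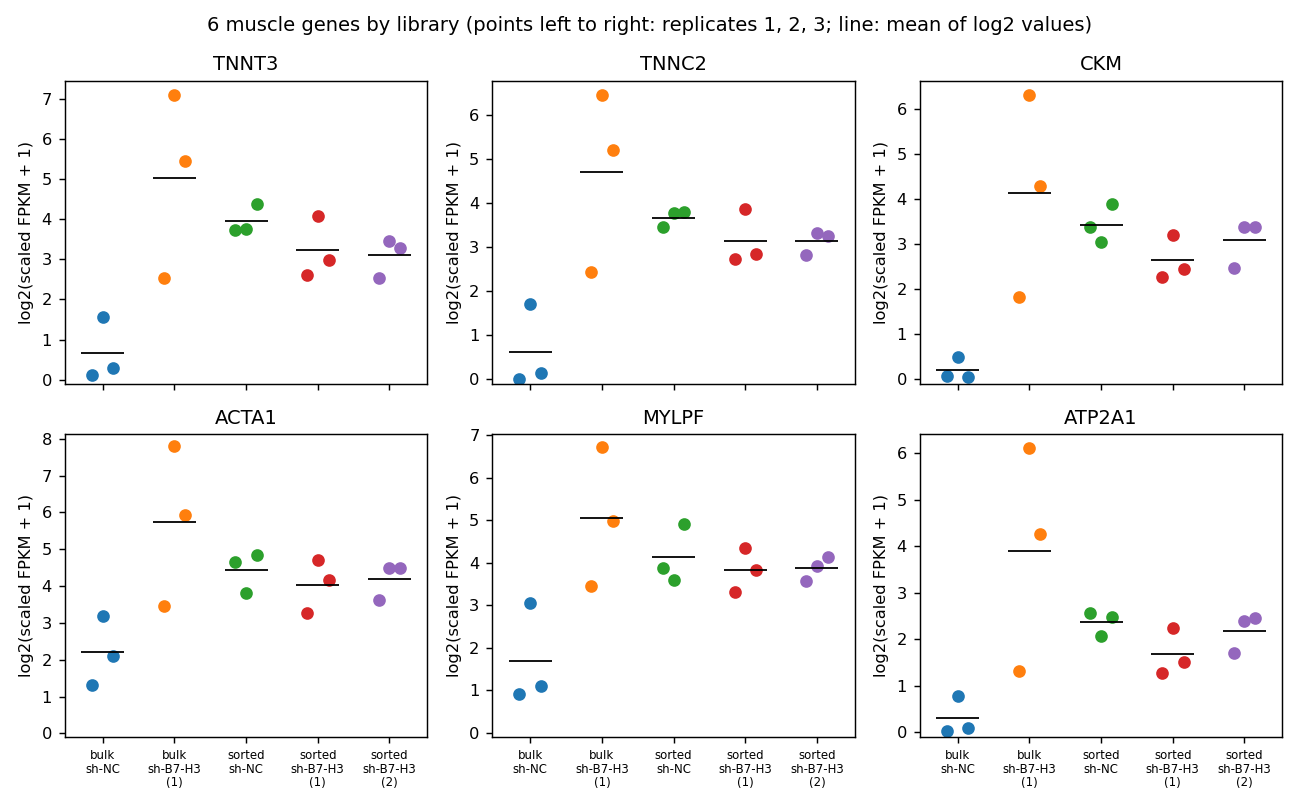
Levels of TNNT3, TNNC2, CKM, ACTA1, MYLPF and ATP2A1 as log2(scaled FPKM + 1), with 1 point per library (left to right, replicates 1 to 3) and a line at the mean of each group. For TNNT3 the bulk sh-B7-H3 (1) points stand for 4.75, 135 and 42.5 scaled FPKM and the sorted sh-NC points for 12.2, 12.5 and 19.7.

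The bulk comparison that selected the genes gave 26 of the 37 with every sh-B7-H3 (1) library above every sh-NC library, and 11 whose groups overlapped. Of the 18 that passed the filter of 1 scaled FPKM in at least 3 of the 6 libraries, 14 did not overlap, beside 24.4% of the 11800 genes that passed, and nothing is read from these counts. Mean levels were 60.8 ± 67.0 against 0.760 ± 1.04 for TNNT3, 42.0 ± 41.1 against 0.784 ± 1.28 for TNNC2 and 33.2 ± 39.9 against 0.167 ± 0.205 for CKM (SD, n = 3 each), so that the SD of bulk sh-B7-H3 (1) was about as large as its mean. The log2 differences were 4.36, 4.08 and 3.94. The CD276 values of these groups overlapped. In the same libraries, 8 adipocyte markers summed to 70.7, 551 and 12.8 in replicates 1 to 3, against 36.3 to 118 in bulk sh-NC, and 8 smooth muscle markers summed to 177, 291 and 187, against 133 to 160. The sum of 8 fibroblast markers was 667, 541 and 279, against 94.5 to 175, and COL1A1, a collagen gene of this list, was at 271, 198 and 113, against at most 64.2. ADIPOQ, a defining adipocyte gene, was at 5.99, 33.7 and 0.0543 in bulk sh-B7-H3 (1). The adipocyte genes FABP4 and CFD were at 29.2, 232 and 6.11 and at 21.3, 224 and 0.234, and the smooth muscle genes ACTA2 and SMTN at 110, 220 and 118 and at 43.8, 37.9 and 47.0. The part of smooth muscle, fibroblasts and adipose tissue in the muscle values of these libraries was not tested.

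Sorted sh-NC cells were set beside bulk sh-NC tumors to ask whether depletion of non-tumor cells also lowered the muscle genes, and most fast-fiber genes had higher levels in the sorted cells. Because the genes were chosen for a rise over these same bulk sh-NC libraries, the differences are a description and no p is given for them. Mean levels were 0.760 ± 1.04 in bulk and 14.8 ± 4.28 in sorted cells for TNNT3, 0.167 ± 0.205 and 10.1 ± 3.30 for CKM, and 0.784 ± 1.28 and 11.8 ± 1.57 for TNNC2 (SD, n = 3). On the log2(scaled FPKM + 1) scale TNNT3 was lower in bulk by 3.29 (SE 0.37), CKM by 3.23 (SE 0.23) and TNNC2 by 3.06 (SE 0.41). All 3 genes, which named the choice, were higher in each sorted library than in each bulk library.

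Only 4 muscle genes had every bulk sh-NC library at 1 scaled FPKM or more. Of these, ACTA1 (-2.24, SE 0.47) and TNNI2 (-1.74, SE 0.27) were lower in each bulk library than in each sorted one, while the groups overlapped for DES (-0.39, SE 0.25) and ENO3 (-0.09, SE 0.19). The light chains MYLPF and MYL1, each with 1 bulk library below 1, had differences of -2.44 and -2.38. A further 6 genes had no bulk library at 1 and were kept by the filter through the sorted cells alone, CKM among them, and the other differences of this kind were -2.07 for ATP2A1, -2.02 for PVALB, -1.49 for ACTN3, -1.20 for TCAP and -0.77 for MYBPC2. Of the 14 genes that passed the filter, 12 had groups that did not overlap, beside 16.9% of the 11418 genes kept, and the same 12 were past the limma threshold (adjusted p below 0.05), beside 6.48%. Given how they were chosen and filtered, nothing is read from these counts about the 37 genes.

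**Figure D3:**
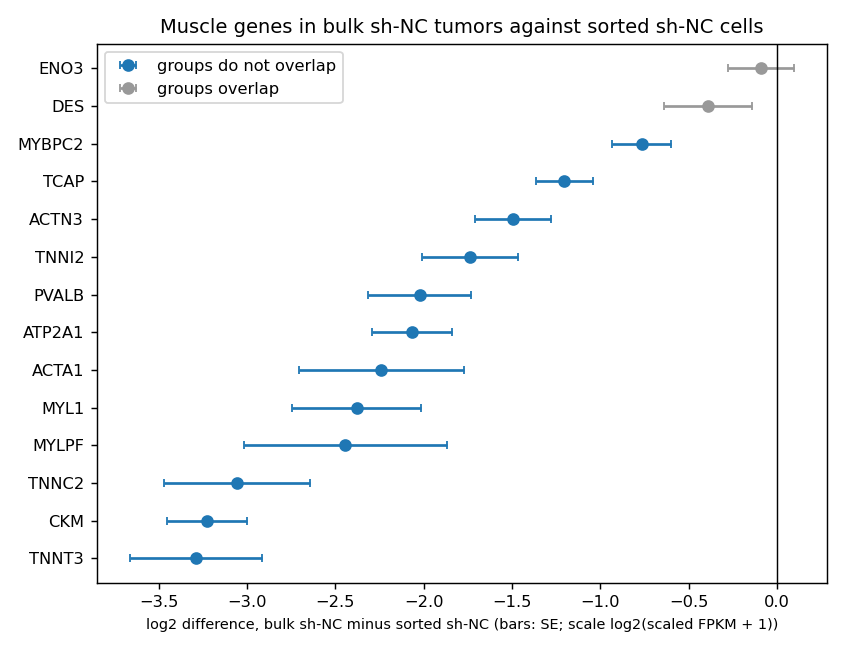
Log2 difference of bulk sh-NC minus sorted sh-NC for the 14 muscle genes tested (points, with SE bars, on the log2(scaled FPKM + 1) scale), blue where the 3 bulk and 3 sorted libraries do not overlap. The differences run from -3.29 for TNNT3 to -0.09 for ENO3.

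Leukocyte and endothelial genes went the opposite way in this comparison, and other host genes were mixed. All 4 leukocyte markers tested (CSF1R, ITGAM, LYZ2 and PTPRC) and all 5 endothelial markers tested were higher in bulk past the threshold, with median log2 differences of 3.54 and 2.94 (limma, where 10.4% of all genes tested were called higher in bulk). PTPRC, ITGAM and the 5 endothelial markers had sorted sh-NC means of at most 0.132 and passed the filter through the bulk libraries alone. The filter thus fixed the direction of these genes, and their counts are a description. Of 7 fibroblast markers tested, 4 were higher in bulk, while DCN and DPT differed by -1.06 and -0.93 (adjusted p = 0.35 and 0.37). Of 5 mast cell markers, 4 were higher and MS4A2, a subunit gene of the IgE receptor, was lower by 1.94 (SE 0.32, adjusted p = 0.0061). The 4 that were higher also passed the filter through bulk alone, with sorted sh-NC means of at most 0.0545. No call was made among 6 adipocyte markers (ADIPOQ -0.09), and of 3 smooth muscle markers TAGLN was higher, by 2.44 (SE 0.22, adjusted p = 0.00021). The endothelial sum was 25.4 to 45.6 scaled FPKM in the bulk libraries and 0.292 to 0.694 in 8 sorted libraries. Y-linked genes, which the male host carries, summed to 3.12 to 6.26 in bulk and 0.277 to 0.887 in those 8 libraries. Sorted sh-B7-H3 (2) replicate 1, with an endothelial sum of 21.9 and a Y-linked sum of 4.88, had a muscle sum of 80.8, within the range of 66.9 to 166 of the other 8 sorted libraries. Bulk sh-NC replicate 3 and sorted sh-NC replicate 2 are the libraries of this comparison rich in MIR6236. Without them, 8 muscle genes were tested and all 8 were lower in bulk, but only TNNT3 and TNNI2 were past the threshold. Among all 10794 genes tested then, 86 were called in either direction.

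Between sorted cells, the comparisons with sh-NC ask whether B7-H3 knockdown moved the muscle genes outside bulk tissue. With sh-B7-H3 (1), 1 of 17 tested genes was called higher and 0 lower, beside 9.03% of all 11163 genes called higher and 4.38% called lower. With sh-B7-H3 (2), 2 of 18 were higher and 0 lower, beside 11.7% and 7.44% of 11243 genes. The median log2 difference over the tested muscle genes was -0.33 and -0.25, and over all genes tested 0.00 and 0.01. TNNT3 differed by -0.73 and -0.86, TNNC2 by -0.52 and -0.54, and CKM by -0.79 and -0.35, none past the threshold. With sh-B7-H3 (2), TNNT3 and TNNC2 did not overlap sh-NC (limma, adjusted p = 0.071 and 0.070). Both comparisons share the sh-NC libraries. Without sorted sh-B7-H3 (1) replicate 2, which had the highest sum of that group, TNNT3, TNNC2, CKM and ATP2A1, 4 of 15 tested, were called lower, beside 2.13% of all 10850 genes tested then. That omission removes the highest value of the group for each of these 4 genes, so nothing is read from it. Leaving out any other single library of this comparison called 0 or 1 muscle gene lower.

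MB, which encodes the oxygen-binding protein myoglobin, was the gene called in both. It was at 0.562, 1.10 and 0.827 scaled FPKM in sorted sh-NC, at 3.11, 4.89 and 2.94 in sorted sh-B7-H3 (1) and at 2.32, 1.96 and 1.69 in sorted sh-B7-H3 (2). Neither knockdown group overlapped sh-NC. The log2 differences were 1.33 (SE 0.19, adjusted p = 0.0022) and 0.71 (SE 0.15, adjusted p = 0.014). In bulk tumors MB was at 0.625, 0.849 and 0.220 with sh-NC and at 2.86, 11.5 and 6.00 with sh-B7-H3 (1). The call with sh-B7-H3 (1) held in all 11 alternatives, and that with sh-B7-H3 (2) was lost in 3 of 11, with all groups fitted together (adjusted p = 0.11), with the replicate block and without its replicate 2 (adjusted p = 0.059), while adjusted p = 0.047 without its replicate 1, the library rich in leukocyte RNA.

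The MB gene (chr15:77015487-77050670, minus strand) shares 64 exonic bases, 4.29% of its exonic length, with APOL6 on the other strand, at chr15:77050607-77050670. APOL6, of the apolipoprotein L family, was at 1.47, 1.20 and 1.67 scaled FPKM in sorted sh-NC, at 10.8, 5.05 and 7.65 in sorted sh-B7-H3 (1) and at 3.64, 3.16 and 3.32 in sorted sh-B7-H3 (2). It rose by 1.80 (SE 0.23, adjusted p = 0.0014) and 0.84 (SE 0.13, adjusted p = 0.0029) on the log2 scale in the comparisons where MB rose. Within sorted sh-B7-H3 (1), MB was highest in replicate 2 and APOL6 in replicate 1. Without strand, reads of the shared bases cannot be assigned, and their part in the MB values was not tested.

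MYL1 was the other gene called higher with sh-B7-H3 (2), by 0.56 on the log2 scale (SE 0.16, adjusted p = 0.043), with no overlap between 16.1 to 18.2 scaled FPKM and the 9.47 to 14.0 of sh-NC. This call was lost in 7 of 11 alternatives, among them leaving out any 1 of the 3 sh-B7-H3 (2) libraries (adjusted p = 0.11, 0.11 and 0.18 without replicates 1, 2 and 3) or sorted sh-NC replicate 2 (adjusted p = 0.16). Between the sorted cells of the knockdown groups, 0 of 17 muscle genes were called, 2 had an unadjusted p below 0.05, and 3.4% of 11239 genes were called in either direction. Libraries of these groups with the same number deviated together (correlations of 0.32, 0.33 and 0.36). With the replicate number as a block, MYBPC2 was called, lower with sh-B7-H3 (1) by 0.66 (SE 0.12, adjusted p = 0.031; without the block 0.10). The block called 1864 of all 11239 genes tested, in either direction. Leaving out sorted sh-B7-H3 (2) replicate 1 also called MYBPC2 lower, beside 4.27% of the 11092 genes tested then.

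The myosin heavy chains were of the fast type in the 12 libraries where a share could be formed. Their values were 1.08 in sum in bulk sh-NC replicate 2, under 1 scaled FPKM in bulk sh-NC replicates 1 and 3 and in sorted sh-B7-H3 (1) replicate 1, and no share was computed below 1. MYH4, the heavy chain of the fastest (IIB) fibers, made up 37.0%, 73.7% and 65.6% of the sum of MYH4, MYH1, MYH2 and MYH7 in bulk sh-B7-H3 (1) replicates 1 to 3. In 8 sorted libraries its share was 63.3% to 86.6%, with a mean of 80.5% ± 7.36 (SD). MYH1, of IIX fibers, held 48.2%, 21.7% and 29.3% in bulk sh-B7-H3 (1). MYH7, of slow fibers, was at or below 0.0178 scaled FPKM in every library. These heavy chain genes are near-identical paralogs, and reads may be split between them in ways the sources used here do not give.

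**Figure D4:**
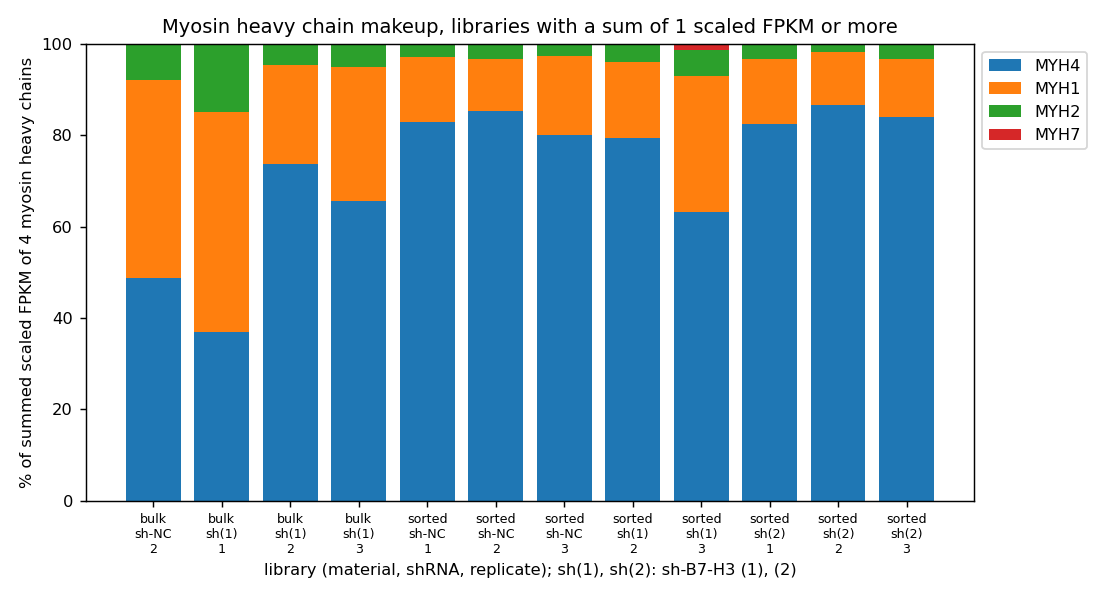
Share of MYH4, MYH1, MYH2 and MYH7 in their summed scaled FPKM (percent, stacked bars) in the 12 libraries with a sum of 1 scaled FPKM or more. MYH4 takes 37.0% in bulk sh-B7-H3 (1) replicate 1 and 63.3% to 86.6% in the sorted libraries.

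The troponin pairs were mostly fast wherever a share could be formed, with lower fast shares in bulk sh-NC than in bulk sh-B7-H3 (1) and sorted cells. TNNT3 made up 96.5% to 98.7% of TNNT3 and TNNT1 in bulk sh-B7-H3 (1) and at least 95.5% in sorted cells, and 71.3% in bulk sh-NC replicate 2. In bulk sh-NC replicates 1 and 3, where both were too low for a share, the slow TNNT1 was at 0.225 and 0.415 scaled FPKM, above TNNT3, and the slow TNNC1 at 0.551 and 0.454, above TNNC2. Differences at such low values are not resolvable in reads. The opposite strands of the TNNC1 and ATP2A1 loci carry parts of NISCH and RABEP2, with bulk sh-NC means of 33.4 and 5.78 scaled FPKM. The part of their reads in the TNNC1 and ATP2A1 values was not tested. The share of TNNI2 in TNNI2 and TNNI1 was 83.8%, 74.2% and 62.9% in bulk sh-NC, below the 92.7% to 98.4% of the other 12 libraries. Relative to ACTA1, TNNT3 was at 6.18%, 24.0% and 6.91% in bulk sh-NC and at 40.3% to 95.0% in the other 12 libraries. CKM was at 1.19% to 4.92% of ACTA1 in bulk sh-NC, at 25.3% to 35.4% in bulk sh-B7-H3 (1) and at 26.5% to 55.5% in sorted cells. Of 11 ratios to ACTA1 formed, every bulk sh-NC library lay below the other 12 in 5 (TNNT3, TNNC2, CKM, ATP2A1 and PVALB), the first 3 of them for the genes that named the choice. The ranges overlapped in the other 6 (MYLPF, MYL1, MYH4, MYH1, TTN and NEB). MYLPF was at 34.9% to 88.4% of ACTA1 in bulk sh-NC and at 47.3% to 104% in the other 12 libraries, and MYL1 at 31.4% to 40.5% and 33.2% to 153%.

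The level of a muscle gene in sorted cells, relative to bulk sh-B7-H3 (1), was lower for the longer transcripts. This is a description, since the bulk libraries that selected the genes also decide which of them are high enough to enter and form the base of each percentage. Among the 33 genes whose mean reached 1 scaled FPKM in bulk sh-B7-H3 (1) replicates 2 and 3, the mean of the 9 sorted libraries was a median of 18.3% of that bulk mean for the 14 genes whose longest coding transcript had at most 1500 bases. It was 10.1% for the 11 genes of over 1500 and at most 4000 bases and 2.37% for the 8 genes over 4000 bases. Thus MYLPF (766 bases) was at 22.5% and TNNC2 (700 bases) at 15.4%, while MYH1 (6081 bases), RYR1 (15358 bases), NEB (22489 bases) and TTN (106824 bases) were at 2.27%, 2.02%, 1.99% and 1.57%.

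For the 9784 other genes at 1 FPKM or more in all libraries, medians in the same length classes were 121%, 103% and 89.4%. The ratio of long to short muscle genes also differed between single libraries. The summed scaled FPKM of the 8 long genes was 9.04%, 12.5% and 12.0% of that of the 14 short genes in bulk sh-B7-H3 (1), and 1.27% to 5.88% in the 9 sorted libraries, without overlap. Bulk sh-B7-H3 (1) replicate 1, with a short-gene sum of 51.1 close to the 54.3 of sorted sh-B7-H3 (1) replicate 1, had 4.62 in the long genes, against 0.688 in the latter. In bulk sh-NC the ratio was 1.44%, 4.54% and 1.75%. CASQ1 (1847 bases) stood below genes of its length, at 5.24%.

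**Figure D5:**
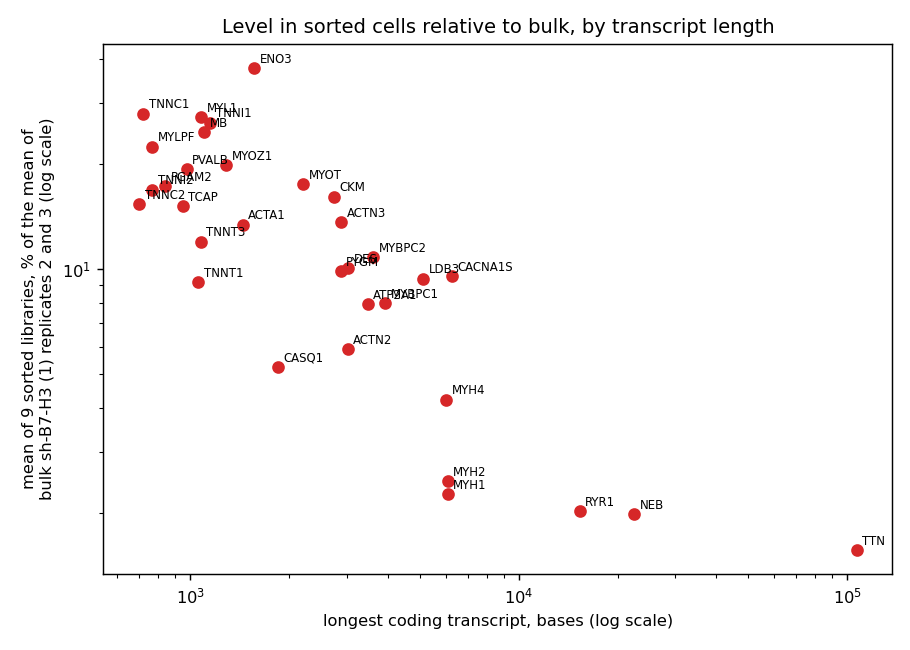
Mean level in the 9 sorted libraries as a percentage of the mean of bulk sh-B7-H3 (1) replicates 2 and 3 (vertical, log scale) against the longest coding transcript in bases (horizontal, log scale) for 33 muscle genes (points). Genes over 4000 bases lie between 1.57% and 9.55%, and those of at most 1500 bases between 9.20% and 27.9%.

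Bulk sh-B7-H3 (1) and sorted sh-B7-H3 (1) were not tested against each other, since the bulk group selected the genes. Bulk replicates 2 and 3 were above all 3 sorted sh-B7-H3 (1) libraries for 36 of the 37 genes. Bulk replicate 1 was above all 3 sorted libraries for 9, within their range for 18 and below all of them for 10. No share over all genes was formed for this comparison, so nothing is read from these counts.

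A further 83 genes, in lists of sarcomere, calcium, membrane, energy and precursor genes of skeletal muscle, were read in the same way. The energy list also holds PYGB, LDHA, ALDOA, ENO1, PGAM1 and CKB, which are not particular to muscle. Counts over these lists are therefore not of muscle genes alone. In bulk sh-NC against sorted sh-NC, 18 were tested, 11 of them from the energy list. Of all 83, tested or not, 22 had every bulk library below every sorted one and 5 the reverse. Among the 11418 genes kept by the filter, which most of the 83 did not pass, 16.9% were lower in this way. Of the 18 tested, 0 were called lower in bulk, beside 6.48% of all genes tested, and 1 higher, beside 10.4%. This was PYGB, a glycogen phosphorylase of other tissues, at 13.6 against 9.04 scaled FPKM on average. The sarcomere list held ANKRD23, which ranged from 9.87 to 29.2 scaled FPKM, and TPM2, a tropomyosin also found in smooth muscle, at 2.79, 4.05 and 3.66 in bulk sh-NC and 9.57, 34.2 and 17.4 in bulk sh-B7-H3 (1). In sorted cells TPM2 stayed between 3.06 and 6.66. The calcium genes TRDN and SLN, which encode triadin and sarcolipin, had their highest values, 7.72 and 9.37, in bulk sh-B7-H3 (1) replicate 2.

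In sorted cells with sh-B7-H3 (1), 1 of 18 tested genes of these lists was called higher (FBXO32, an atrophy-linked ubiquitin ligase gene, by 0.40, SE 0.11, adjusted p = 0.049) and 4 were lower, beside 9.03% and 4.38% of all genes. All 4 that were lower, CKB, PGAM1, ENO1 and PFKM, are genes of energy metabolism, of which ENO1 and PGAM1 are used by most cells. With sh-B7-H3 (2), 2 of 17 were higher (CHRNB1, an acetylcholine receptor subunit gene, and FBXO32) and 6 were lower, 5 of them energy genes (ALDOA, COX8B, ENO1, PFKM and PGAM1) and the other ANKRD23, beside 11.7% and 7.44% of all genes. Between the shRNAs, ANKRD23 was higher and DYSF, the membrane repair gene dysferlin, lower with sh-B7-H3 (1). ALDOA and LDHA, the most abundant of the energy list, were at 394 to 1251 and 349 to 784 in all libraries.

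Defining markers of muscle precursors were near 0, while other genes of the list were measurable. PAX7 and MYF5, which define satellite cells and early myoblasts, were listed at 0 in all 6 bulk libraries and did not exceed 0.0120 and 0.0301 in sorted cells. CDH15, a cadherin of muscle precursors, ranged from 0.231 to 2.09. MYH8, the perinatal myosin heavy chain, was at 0.0739, 2.41 and 0.912 in bulk sh-B7-H3 (1) and at or below 0.154 elsewhere. The 10 genes of the list summed to 0.399, 6.17 and 3.40 there and to 0.542 to 3.01 in bulk sh-NC. Of the cardiac list, MYH6 reached at most 0.0323 and NPPA was listed at 0 in all 15 libraries, while TNNT2, the cardiac troponin T gene, which embryonic muscle also uses, was at 2.53 to 14.1, and MYL4, an atrial and embryonic light chain, at 0.420 to 3.37. In sorted cells, the smooth muscle actin gene ACTA2 was lower with sh-B7-H3 (2) by 1.12 (SE 0.22, adjusted p = 0.011). The other smooth muscle markers tested there, TAGLN and SMTN, were higher by 0.91 and 0.11, neither of them called. The adipocyte gene PLIN4 was lower with sh-B7-H3 (1) by 0.77 (SE 0.20, adjusted p = 0.037). The other adipocyte markers tested there were higher by 0.12 (RETN) to 0.76 (FABP4), none of them called. The slow-fiber list summed to 50.3 to 76.0 in all libraries, and ATP2A2, a calcium pump gene of most cell types, held 48.7 to 74.8 of it.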

How the data were processed

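RNA of 9 sorted and 6 bulk libraries was read by the authors in single-end runs. The authors deposited FPKM per gene and library, in a table named for counts (build mm10, per the labels). The aligner, the counting and its use of strand are not given in the sources used here, and the paper and the labels name different library kits. A further deposited table of log2 values for selected genes was not used. After 26 symbols turned into dates were left out, each library was divided by its median-ratio factor (9872 genes at 1 FPKM or more in all 15 libraries). Groups came from the sample labels. log2(scaled FPKM + 1) was tested with limma 3.58.1 (R 4.3.3, mean-variance trend) for genes at 1 scaled FPKM in at least 3 libraries of a comparison, with Benjamini-Hochberg adjustment over all genes tested and a threshold of 0.05, and the script was tested on simulated data. Because the table holds FPKM, no count model was fitted. Lengths and positions are from GENCODE M21, and promoters from RefSeq (GRCm38.p6). Tables were made with Python 3.11.15, numpy 2.4.6, pandas 2.3.3 and scipy 1.17.1. Values were printed for TNNT3, TNNC2 and CKM, for the 2 genes of each role with the highest bulk mean, and for genes called in a comparison that did not select them. For the other skeletal, slow-fiber, smooth muscle, cardiac and adipocyte lists, the 2 genes with the highest bulk mean and those called were named, and other marker lists were given by sums, counts and examples. MYOZ1, LDB3, ACTN2, MYOT, TTN, CASQ1, RYR1, MYH1, NEB, PAX7, MYF5, MYH6, NPPA, ADIPOQ, COL1A1, DCN, DPT, MS4A2, UBE2C and APOL6 were named after their values were seen or as gene markers and neighbors. NISCH and RABEP2 were also named as neighbors. The genes and lists were chosen with earlier results of these data known.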

Additional observations from a re-analysis of the deposited data

Results flagged for a closer look

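ACTN2, MYOT and RYR1 differed in opposite directions with sh-B7-H3 (1) in bulk tumors and in sorted cells, with no overlap between groups in either. ACTN2, an alpha-actinin, had means of 0.154 with sh-NC and 1.97 scaled FPKM with sh-B7-H3 (1) in bulk tumors and a difference of -0.15 in sorted cells (0.129 against 0.281). The Z-disc gene MYOT had means of 0.00673 and 1.91 in bulk and a difference of -0.51 in sorted cells (0.263 against 0.773). RYR1, the calcium release channel, had means of 0.0344 and 1.72 in bulk and a difference of -0.053 in sorted cells (0.0217 against 0.0748). The difference between bulk and sorted cells was not tested, the bulk comparison selected these genes, and all their sorted values were under 1 scaled FPKM.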

How the results depend on the processing

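The depth behind single FPKM values is unknown, so differences among genes under about 1 scaled FPKM, which include 18 of the 37 muscle genes in all 9 sorted libraries, were not resolvable in reads. With FPKM as deposited, the median over all genes tested in sorted cells moved to 0.17 with sh-B7-H3 (1) and 0.21 with sh-B7-H3 (2), and changes there are relative to it.

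In sorted cells with sh-B7-H3 (1), the count of 1 muscle gene became 2 with FPKM as deposited (MYH4, lower, was added) and 2 without the filter on low values (MYOT, lower), and it lay between 1 and 5 when single libraries were left out. With sh-B7-H3 (2), the count of 2 became 0 when all groups were fitted together, 0 with the replicate number as a block, and lay between 0 and 3 when single libraries were left out. For the block, same-numbered libraries of sh-NC and knockdown cells did not deviate together (correlations of -0.54 to 0.058 with sh-B7-H3 (1)). The labels give no link between these samples other than the number, and a shared batch was not tested. Between the knockdown groups, where every correlation was above 0.1, the count of 0 became 1 with the replicate block, and it was 0 or 1 when a library was left out. In bulk sh-NC against sorted sh-NC, which shares its bulk libraries with the selecting comparison, 12 calls became 6 with all groups together and 2 without the libraries rich in MIR6236, a setting chosen after seeing the data. They lay between 5 and 11 when single libraries were left out, with 5 or 6 of 8 genes tested without any 1 of the sorted sh-NC libraries and 6 of 14 without bulk sh-NC replicate 1. For the bulk comparison that selected the genes, from which nothing is read, the 8 of 18 past the threshold (12.8% of all genes tested were higher) became 15 with FPKM as deposited, 13 with a pseudocount of 0.1, 2 without the filter, 15 with all groups together and 1 without the libraries rich in MIR6236, and they lay between 0 and 7 when single libraries were left out. No muscle gene called in a comparison that did not select it changed direction in any alternative. The replicate block moved no other count of muscle genes by over 1.5 times. Fewer genes passed the filter where libraries were left out, and the cause of the other changes was not tested.

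Counts over all genes also varied. In bulk sh-NC against sorted sh-NC, 1924 calls became 652 with FPKM as deposited, 3082 with all groups together and 86 without the libraries rich in MIR6236, and in the bulk comparison 2520 became 961 with FPKM as deposited and 1413 with the replicate block. In sorted cells, 1497 became 915 and 2150 became 1395 with the block, and between the knockdown groups 382 became 1864 with the block and 137 without the filter. Leaving out single libraries gave 139 to 4436 calls in bulk sh-NC against sorted sh-NC, 546 to 3793 in the bulk comparison, 722 to 1948 and 962 to 3614 in sorted cells against sh-NC, and 35 to 890 between the knockdown groups. The MYH4 share of bulk sh-B7-H3 (1), 58.7% on average, was the same with FPKM as deposited.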
